A study of Saccharomyces cerevisiae with 4 samples.

Results

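The nuclear genes for the respiratory chain and the ATP synthase of Saccharomyces cerevisiae are described here, in newly synthesized RNA of Δsyc1 and wild-type cells. The genes were chosen by name, with earlier results of these data known. The list holds 35 genes for subunits of the ATP synthase, cytochrome c oxidase, the cytochrome bc1 complex and succinate dehydrogenase, for cytochrome c and for the internal NADH dehydrogenase. Of these, 34 were among the 4970 counted regions, all 34 passed the filter on low counts, as did 4845 regions in all, and the ATP synthase gene ATP14 was not analysed here.

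The study asked how Syc1, a subunit that sets the APT complex apart from the pre-mRNA cleavage and polyadenylation factor CPF, bears on RNA synthesis. It used 4tU-seq, in which cells take up 4-thiouracil for a few minutes and the RNA made during that time is purified through its thiol group and sequenced. The groups were Δsyc1 (BY4741, syc1::kanMX, 2 libraries) and wild-type (BY4741, 2 libraries). Both were grown at 30 °C in YPD, a glucose-rich medium, until the OD600 reached 0.8. The label was present for 6 min at 5 mM, and library preparation started from 100 ng of RNA. Cells therefore came from a medium in which respiration is repressed by glucose. BY4741 is derived from S288C, whose HAP1 gene, for a haem-dependent activator of respiratory genes, carries a Ty1 insertion.

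The libraries held 26089573 and 22880058 counts in Δsyc1 and 36175417 and 35203133 counts in wild-type. SYC1 itself had 1 and 2 counts in Δsyc1, against 743 and 794 in wild-type, as the labels state. BY4741 cells have mating type a, and of the markers of the other mating type the pheromone gene MF(ALPHA)1 had 1 and 0 counts in Δsyc1 and 5 and 5 in wild-type, although SAG1 was read at 93.9 ± 1.83 and 88.9 ± 2.62 CPM (SD, n = 2 each) and STE3 at 4.31 and 3.27 CPM in Δsyc1 and 2.77 and 2.95 CPM in wild-type. CPM (a gene's counts scaled to a common library size) were scaled with TMM factors and are shares of a library. A change in the total amount of RNA made per cell is therefore not visible, and fewer cells making a transcript and less transcript made per cell cannot be told apart. Of the 34 counted regions, 9 (26.5%, against 34.4% of all mRNA regions) share bases with an opposite-strand region, those of CYC1, CYC7 and NDI1 among them. The paper describes the replicates as biological. With n = 2 per group each edgeR p-value rests on the spread between these few samples, estimated with information from all genes tested.

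Electrons enter the yeast chain through several dehydrogenases. Among them are Ndi1, a single-protein NADH dehydrogenase that takes the place of complex I, and succinate dehydrogenase (complex II). From these, electrons pass by ubiquinone to the cytochrome bc1 complex (complex III), by cytochrome c to cytochrome c oxidase (complex IV) and to oxygen. The proton gradient this builds drives the ATP synthase. A pair of these proteins exists in isoforms of opposite regulation. COX5A and CYC1 are the genes expressed in air, whereas COX5B and CYC7 are the genes known for low oxygen. The Hap2/3/4/5 complex binds CCAAT boxes before many respiratory genes and is limited by Hap4 in glucose.

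The DNA before 7 of these genes is shown, to give the place of the CCAAT box that most of the 34 share, where it is present. These genes either changed in Δsyc1 or belong to the isoform pairs. ATP2, also called higher, is not shown, and its stretch free of other genes was 40 nt. Each stretch is read from the R64 genome (RefSeq), is given 5′ to 3′ on the strand of its gene and ends at the base before the counted transcript. Coordinates of genes below are those of the counted regions in the same build. Stretches were shortened where another gene or counted region began. Capitals mark CCAAT or, where the motif lies on the other strand, ATTGG. The stretches come from chrXIV:531546-531694 (plus strand) for COX5A, chrIX:155000-155199 (plus) for COX5B, chrX:526090-526289 (plus) for CYC1, chrV:80159-80358 (minus) for CYC7, chrII:36534-36733 (plus) for ATP1, chrXII:910009-910198 (minus) for COX8 and chrVIII:107598-107760 (plus) for QCR10.
COX5A: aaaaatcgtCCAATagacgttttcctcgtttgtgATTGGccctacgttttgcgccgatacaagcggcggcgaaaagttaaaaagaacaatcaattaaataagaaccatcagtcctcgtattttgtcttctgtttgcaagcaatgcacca
COX5B: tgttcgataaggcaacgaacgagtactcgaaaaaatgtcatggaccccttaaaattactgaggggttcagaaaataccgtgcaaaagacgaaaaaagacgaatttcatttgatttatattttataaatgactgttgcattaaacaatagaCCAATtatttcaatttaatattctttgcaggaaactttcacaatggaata
CYC1: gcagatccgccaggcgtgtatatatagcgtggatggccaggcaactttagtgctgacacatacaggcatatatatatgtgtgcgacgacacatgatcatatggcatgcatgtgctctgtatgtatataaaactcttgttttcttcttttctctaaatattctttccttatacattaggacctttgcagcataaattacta
CYC7: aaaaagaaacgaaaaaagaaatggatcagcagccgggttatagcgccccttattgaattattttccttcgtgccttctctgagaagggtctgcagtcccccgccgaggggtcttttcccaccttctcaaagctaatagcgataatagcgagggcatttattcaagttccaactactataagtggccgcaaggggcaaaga
ATP1: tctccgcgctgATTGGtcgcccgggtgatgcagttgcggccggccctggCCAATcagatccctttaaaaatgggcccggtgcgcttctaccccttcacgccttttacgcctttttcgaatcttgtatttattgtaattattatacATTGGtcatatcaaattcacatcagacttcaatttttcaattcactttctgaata
COX8: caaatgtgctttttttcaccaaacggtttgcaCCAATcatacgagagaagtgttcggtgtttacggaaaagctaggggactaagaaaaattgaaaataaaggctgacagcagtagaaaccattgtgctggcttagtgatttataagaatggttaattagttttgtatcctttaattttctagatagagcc
QCR10: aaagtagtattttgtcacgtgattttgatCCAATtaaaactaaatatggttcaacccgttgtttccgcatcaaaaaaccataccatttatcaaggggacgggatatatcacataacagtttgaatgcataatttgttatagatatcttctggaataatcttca

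In these stretches COX5A had CCAAT 140 and 115 bases before the transcript, ATP1 at 189, 151 and 55 bases, COX8 at 158 bases, QCR10 at 134 bases and COX5B at 50 bases, whereas CYC1 and CYC7 had none. Over the whole 300 bases before the start, searched on both strands, 32 of the 34 genes (94.1%) had at least 1 CCAAT, against 42.5% of all 4909 mRNA regions. The exceptions were CYC1 and CYT1. CYC7 had its CCAAT 272 bases before the start. The motif was concentrated at a set distance, since 30 of the 34 genes (88.2%) had it between 91 and 180 bases before the transcript, against 15.2% of all mRNA regions. This window was chosen after the positions were seen. Unlike the stretches shown, the 300 bases were not shortened at other genes. Free DNA before the start was 40 nt for ATP2, 11 nt for COX6, 0 nt for QCR6 and 48 nt for QCR7, short of their matches. The Hap1 motif (CGG, any 3 bases, TA, any base and CGG, on either strand) was in the windows of QCR6 and CYT1 (5.88%, against 0.143% of all mRNA regions, 7 in number). ATTGTTC, the core of the site of the hypoxic repressor Rox1, was before ATP5, COX5A, COX5B and QCR2 (11.8%, against 7.72%). A match is a run of letters and not a shown binding site.

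**Figure D1:**
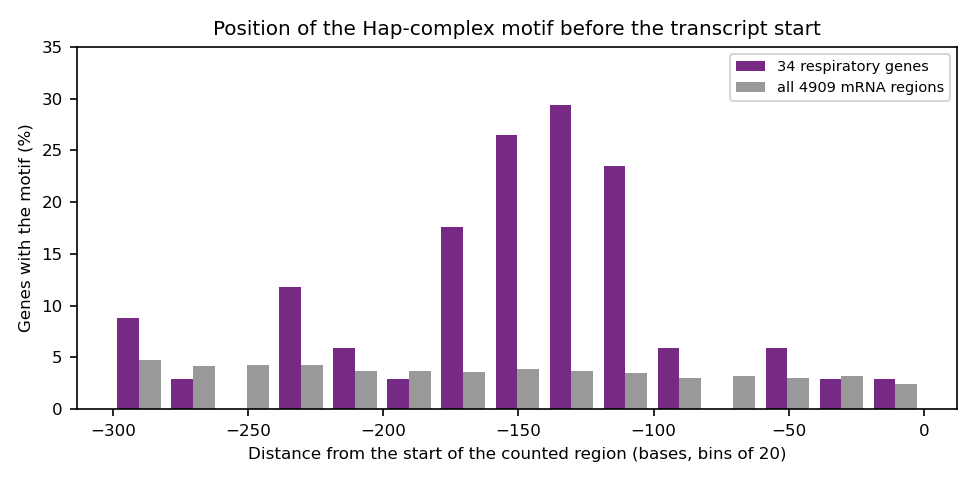
Share of genes (%) with the Hap-complex motif, CCAAT on either strand, in bins of 20 bases before the start of the counted region, for the 34 respiratory genes (purple) and all 4909 mRNA regions (grey). The purple bars reach 29.4% in the bin of 121 to 140 bases, while the grey bars lie between 2.46% and 4.73% in every bin.

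The respiratory genes did not move as a block. A gene was called where edgeR's quasi-likelihood test gave it an adjusted p below 0.1 and its fold change exceeded 1.5. By this rule 4 of the 34 were higher in Δsyc1 (11.8%, against a background of 9.08% of the 4845 genes tested) and 3 were lower (8.82%, against 8.15%), shares near the background in both directions. Those higher were CYC7, COX5B, ATP2 and ATP1, and those lower were COX8, QCR10 and COX5A. The median log2 fold change of the 34 was 0.10 (quartiles -0.29 and 0.27), against -0.02 (quartiles -0.25 and 0.24) over all genes tested. With no normalization factors it was -0.05, against -0.17 over all genes tested. With no fold change minimum 15 were higher (44.1%, background 33.5%) and 14 lower (41.2%, background 35.5%). Both Δsyc1 libraries lay above both wild-type libraries in CPM for 18 genes (52.9%, background 40.5%) and below both for 15 (44.1%, background 43.2%), and only for RIP1 did the groups overlap. The median absolute log2 difference between replicates was 0.05 in Δsyc1 and 0.08 in wild-type, and the median absolute log2 fold change was 0.29. Without wild-type replicate 2, COX7 was also called higher (log2 fold change 0.66), and without Δsyc1 replicate 1, CYC1 was also called lower (-0.62). The direct DESeq2 test against a fold change of 1.5 called 0 of the 34 in either direction, against a background of 4.73% of all genes higher and 2.62% lower (3 of the 34 were higher and 0 lower at an unadjusted p under 0.05), and DESeq2 against no change, with the same fold change minimum as edgeR, called 4 higher and 3 lower.

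**Figure D2:**
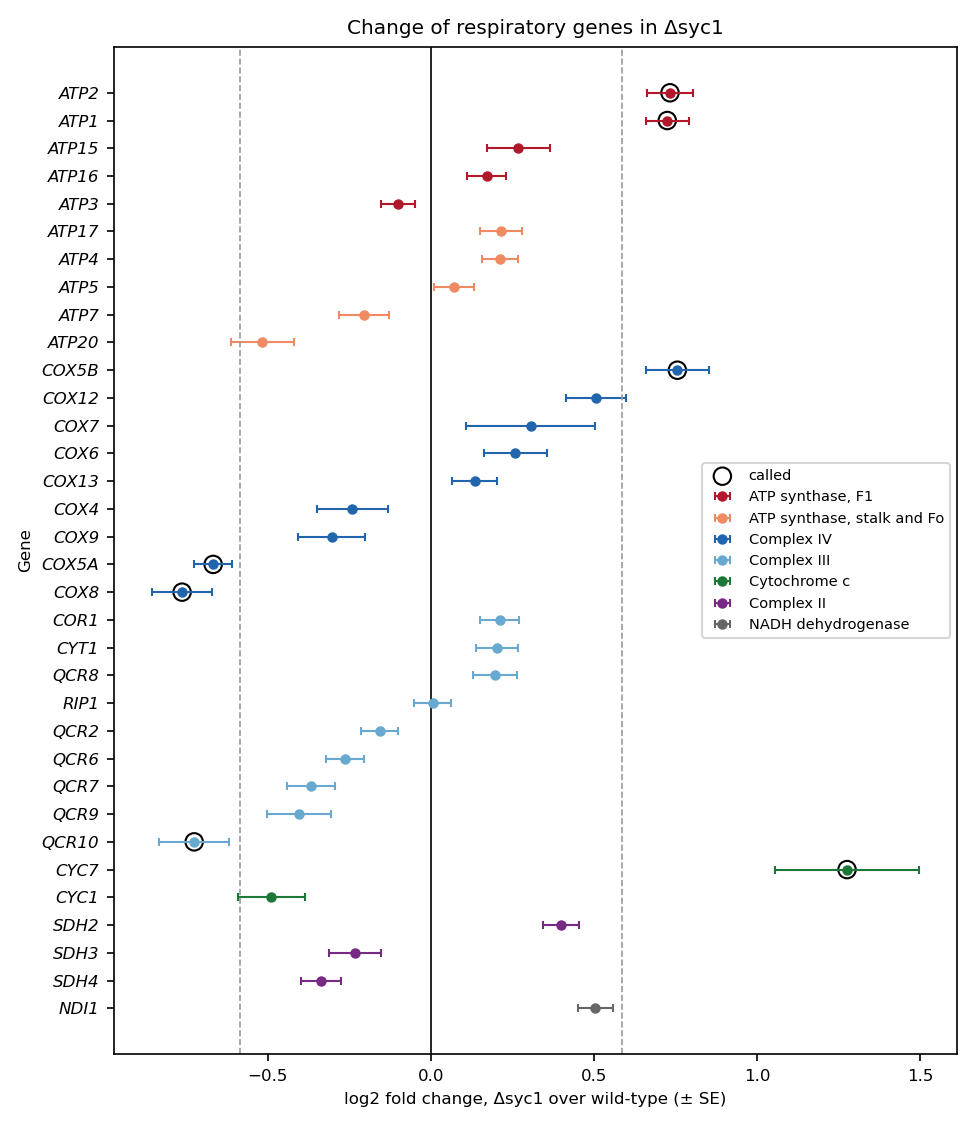
Log2 fold change of Δsyc1 over wild-type with its SE for each of the 34 genes, grouped and coloured by complex. Dashed lines mark a fold change of 1.5 in either direction and open circles mark the 7 genes called, and each large complex has members on both sides of 0.

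Fold change went with transcript length, here and across the genome. The counted regions of the 34 genes had a median length of 729.5 nt, against 1430 nt over all mRNA regions, and 29 of the 34 were shorter than that median. The Spearman correlation of log2 fold change with region length was 0.31 across the 34 genes and 0.33 across the 4802 mRNAs tested. Genes share their libraries here, so these values are descriptive. The difference between Δsyc1 replicates 1 and 2 had a correlation of -0.35 with length, and the difference between wild-type replicates 1 and 2 had one of 0.18, so that libraries of the same strain also differed along length. The 11 members over 1000 nt had a median log2 fold change of 0.21 and the 23 others one of -0.20, against 0.04 and -0.18 for all mRNAs of these classes. With an offset for length in the edgeR fit, 7 members were lower at an unadjusted p under 0.05, a share not computed over all genes. With that offset 7 members were called higher (20.6%, background 10.0% of all genes in that fit) and 0 lower (background 5.53%). The same 4 genes were among the 7, with ATP15, COX12 and COX7 added, and COX8, QCR10 and COX5A lost their calls at log2 fold changes of -0.50, -0.48 and -0.48. The part of length in the lower values was not tested.

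**Figure D3:**
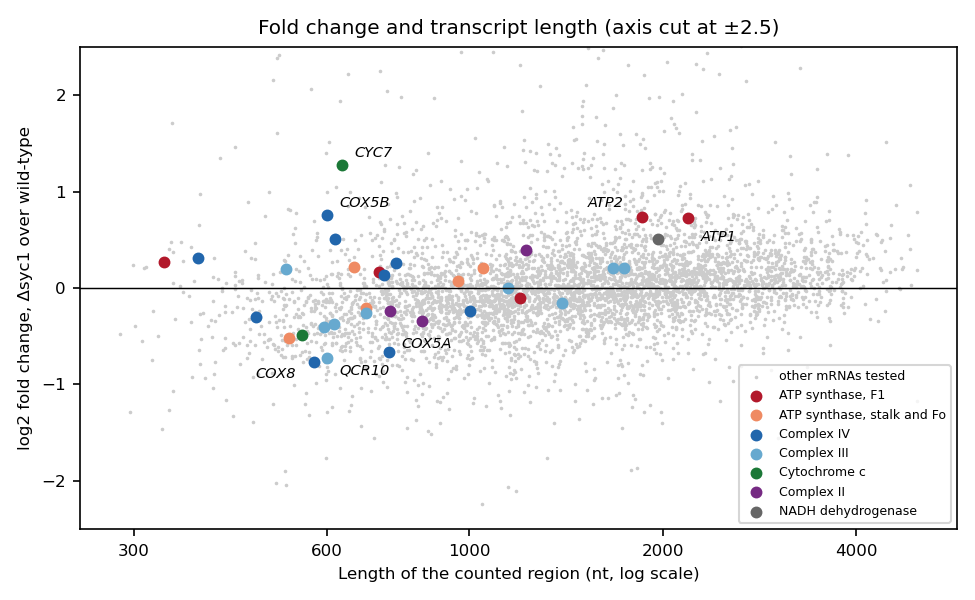
Log2 fold change of Δsyc1 over wild-type against the length of the counted region (nt, log scale) for the 34 respiratory genes, coloured by complex, over the other mRNAs tested (grey, those beyond ±2.5 not drawn). ATP1 and ATP2 lie among the long transcripts, COX8, QCR10 and COX5A among the short ones, and CYC7 and COX5B are high at a length of about 600 nt.

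In the F1 sector of the ATP synthase, the catalytic head, the subunits differed from each other. ATP2 (YJR121W, chrX:647517-649370), for the catalytic beta subunit, had 658 and 748 CPM in Δsyc1, against 434 and 412 CPM in wild-type. ATP1 (YBL099W, chrII:36734-38922), for the alpha subunit, had 544 and 615 CPM in Δsyc1, against 354 and 347 CPM in wild-type. The groups were far apart for both genes, which had the highest CPM of the 34. The log2 fold changes were 0.73 ± 0.07 (SE, n = 2 per group, edgeR adjusted p = 4.9e-05) for ATP2 and 0.72 ± 0.07 (adjusted p = 3.8e-05) for ATP1. ATP3 (YBR039W), for the gamma subunit of the rotor shaft, had 121 and 121 CPM in Δsyc1, against 132 and 128 CPM in wild-type, and a log2 fold change of -0.10 ± 0.05 (adjusted p = 0.121). The shaft subunit genes ATP16 (delta) and ATP15 (epsilon) had log2 fold changes of 0.17 and 0.27 and were not called. Per kilobase of counted region, ATP2 and ATP1 stood at 379 and 265 CPM in Δsyc1 and at 228 and 160 CPM in wild-type, whereas ATP3 stood at 101 CPM in Δsyc1 and 108 CPM in wild-type. On this scale QCR6, at 218 CPM in Δsyc1 and 261 CPM in wild-type, was above ATP2 in wild-type and below both in Δsyc1.

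The ratio of ATP1 to ATP2 counts did not separate the strains, and the libraries overlapped at a mean log2 ratio of -0.28 ± 0.0049 in Δsyc1 and -0.27 ± 0.03 in wild-type (SD, n = 2 each, exact two-sided permutation p = 1.0). The log2 ratio of ATP1 to ATP3 was 2.26 ± 0.13 in Δsyc1 and 1.43 ± 0.0050 in wild-type, a difference of 0.82 or 1.77-fold. That of ATP2 to ATP3 was 2.53 ± 0.14 in Δsyc1 and 1.70 ± 0.03 in wild-type, a difference of 0.83. For both, every Δsyc1 library was above every wild-type library and the exact two-sided permutation p was 0.333, the smallest that 2 against 2 libraries allow. Over the 7 ratios compared between genes here, the Benjamini-Hochberg adjusted value of these permutation tests was 0.389 for each ratio other than that of ATP1 to ATP2. The regions of ATP1, ATP2 and ATP3 are 2189, 1854 and 1200 nt long, and no ratio was taken with an offset for length. The ratios are taken within a library and do not depend on its scaling. The higher call of ATP1 and ATP2 does, since with no normalization factors their log2 fold changes were 0.57 and 0.58, just under the 1.5-fold minimum.

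The peripheral stalk and the membrane sector showed smaller values. The stalk genes ATP4, ATP5 and ATP7 had log2 fold changes of 0.21, 0.07 and -0.20, and ATP17, for a subunit of the membrane sector, had 0.22. ATP20 (YPR020W), for a subunit that takes part in the dimerization of the enzyme, was lowest, at 11.6 and 10.9 CPM in Δsyc1 and 16.6 and 15.7 CPM in wild-type. Its log2 fold change of -0.52 ± 0.10 was under the fold change minimum, and it was called lower with upper-quartile factors (-0.60) and with none (-0.67). The sign of ATP5 also turned with these factors (-0.01 and -0.08), and that of ATP7 with the length offset (0.01).

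**Figure D4:**
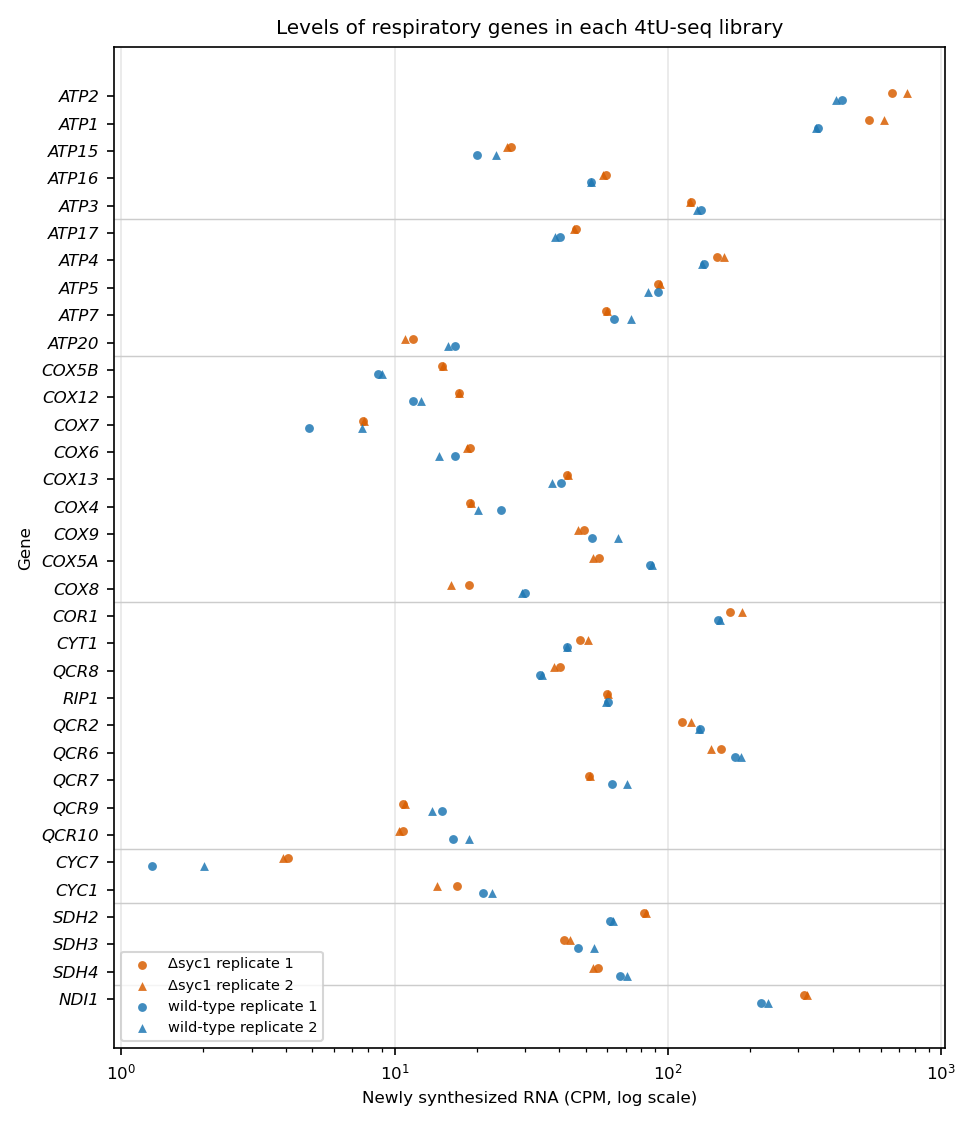
CPM (log scale) of each of the 34 genes in the 2 Δsyc1 libraries (orange) and the 2 wild-type libraries (blue), with circles for replicate 1 and triangles for replicate 2, and grey lines between complexes. CPM are not scaled to length here. ATP2 and ATP1 are highest and CYC7 is lowest, at 4.06 and 3.92 CPM in Δsyc1 and 1.29 and 2.01 CPM in wild-type.

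In cytochrome c oxidase the isoforms of subunit 5 moved apart. COX5B (YIL111W, chrIX:155200-155799), the hypoxic isoform, had 14.91 and 14.996 CPM in Δsyc1, against 8.73 and 8.98 CPM in wild-type, and its log2 fold change was 0.76 ± 0.10 (edgeR adjusted p = 0.00025). COX5A (YNL052W, chrXIV:531695-532443), the isoform used in air, had 55.9 and 53.3 CPM in Δsyc1, against 86.0 and 87.5 CPM in wild-type, and its log2 fold change was -0.67 ± 0.06 (adjusted p = 3.1e-05). No library overlapped with the other strain for either gene. Per kilobase of counted region COX5A was the higher isoform in both strains, at 72.9 CPM in Δsyc1 and 116 CPM in wild-type, whereas COX5B stood at 24.9 CPM in Δsyc1 and 14.8 CPM in wild-type. Of the counts of the pair, COX5B made up 21.1% (19.2 to 23.02, 95% Wilson interval) and 21.97% (19.9 to 24.2) in Δsyc1, against 9.22% (8.31 to 10.2) and 9.30% (8.40 to 10.3) in wild-type. The intervals cover counting error only. The log2 ratio of COX5B to COX5A was -1.87 ± 0.06 in Δsyc1 and -3.29 ± 0.01 in wild-type (SD over 2 libraries). The difference was 1.43 or 2.69-fold, with the smallest exact permutation p possible, 0.333. The regions are 600 nt and 749 nt long. The COX5B gene has an intron in its coding sequence, as do QCR9 and QCR10.

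The balance of the cytochrome c isoforms also differed between the strains, on fewer counts. CYC7 (YEL039C, chrV:79526-80158), the hypoxic isoform, had 102 and 84 counts in Δsyc1 and 49 and 75 in wild-type, which is 4.06 and 3.92 CPM in Δsyc1 and 1.29 and 2.01 CPM in wild-type. Its log2 fold change of 1.28 ± 0.22 (edgeR adjusted p = 0.0012) was the largest of the 34 genes. CYC1 (YJR048W, chrX:526290-526838), the isoform used in air, had 16.9 and 14.3 CPM in Δsyc1, against 21.1 and 22.8 CPM in wild-type, and its log2 fold change was -0.49 ± 0.10 (adjusted p = 0.0035), under the fold change minimum. The groups were apart for both genes. Of the counts of the pair, CYC7 made up 19.4% (16.2 to 22.99, 95% Wilson interval) and 21.6% (17.8 to 25.95) in Δsyc1, against 5.78% (4.40 to 7.56) and 8.10% (6.51 to 10.03) in wild-type. The log2 ratio differed by 1.81 or 3.50-fold (exact permutation p = 0.333). Leaving out each library in turn gave differences between 1.55 and 2.07. The UTR1 gene covers 25.1% of the CYC1 region on the other strand, and whether counting used strand is not given in the sources used here.

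**Figure D5:**
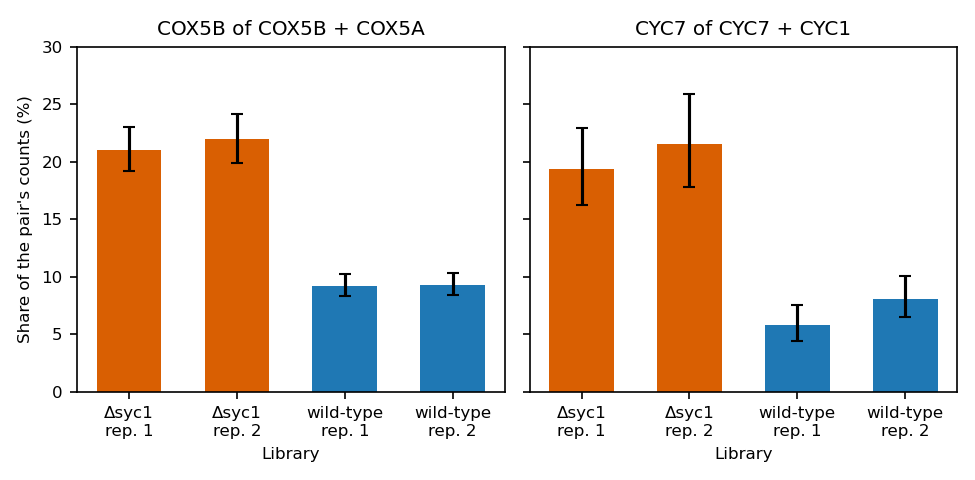
Share (%) of COX5B in the counts of COX5B and COX5A (left) and of CYC7 in the counts of CYC7 and CYC1 (right) in each library, Δsyc1 in orange and wild-type in blue, with 95% Wilson intervals. Both Δsyc1 libraries lie above both wild-type libraries in each panel, at 19.4% to 21.97% against 5.78% to 9.30%.

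The other genes of complex IV lay on both sides of 0. COX8 (YLR395C, chrXII:909436-910008), for a small structural subunit, had 18.7 and 16.1 CPM in Δsyc1, against 30.0 and 29.2 CPM in wild-type, with no overlap and a log2 fold change of -0.76 ± 0.09 (edgeR adjusted p = 0.00018). COX9 and COX4 had values of -0.30 and -0.24, COX13 and COX6 values of 0.13 and 0.26, and COX12 one of 0.51, none of them called. Without single wild-type libraries COX9 ranged between -0.46 and -0.13 and COX4 between -0.38 and -0.09. COX9 had the opposite sign with the length offset (0.02) and COX13 with no normalization factors (-0.02). COX7 had 7.69 and 7.71 CPM in Δsyc1 and 4.88 and 7.58 CPM in wild-type, so that its value of 0.31 ± 0.20 rested on a spread of 1.91 CPM (SD, n = 2) in wild-type.

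In the cytochrome bc1 complex 1 of 9 genes was called. QCR10 (YHR001W-A, chrVIII:107761-108361), for a small subunit at the edge of the complex, had 10.7 and 10.4 CPM in Δsyc1, against 16.3 and 18.7 CPM in wild-type, and its log2 fold change was -0.73 ± 0.11 (edgeR adjusted p = 0.00053). The groups did not overlap. The small subunit genes QCR9, QCR7 and QCR6 had log2 fold changes of -0.40, -0.37 and -0.26, and QCR8 had 0.20. The PHO4 region overlaps that of QCR6 on the same strand, so that reads there are uncertain. Of the large subunits, COR1 and QCR2, for the paired core proteins, had values of 0.21 and -0.16. The log2 ratio of COR1 to QCR2 was 0.60 ± 0.02 in Δsyc1 and 0.24 ± 0.02 in wild-type, a difference of 0.37 (exact permutation p = 0.333). Of the redox subunits, CYT1, for cytochrome c1, had 0.20, and RIP1, for the Rieske iron-sulfur protein, had 59.9 and 60.3 CPM in Δsyc1 and 60.3 and 59.5 CPM in wild-type. Its log2 fold change was 0.00 ± 0.06, and its sign turned with upper-quartile factors (-0.08) and with none (-0.15).

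At the entry of the chain, NDI1 (YML120C, chrXIII:27903-29867) had 316 and 323 CPM in Δsyc1, against 219 and 232 CPM in wild-type, with no overlap. Its log2 fold change of 0.50 ± 0.05 (edgeR adjusted p = 8.8e-05) was under the fold change minimum. SDH2 (YLL041C), for the iron-sulfur subunit of complex II, had 81.5 and 82.9 CPM in Δsyc1, against 61.6 and 63.1 CPM in wild-type, and a value of 0.40 ± 0.06. The genes of the membrane anchor, SDH3 and SDH4, had values of -0.23 and -0.34. The log2 ratio of SDH2 to SDH4 was 0.60 ± 0.06 in Δsyc1 and -0.14 ± 0.03 in wild-type, a difference of 0.74 or 1.67-fold (exact permutation p = 0.333). SDH1, for the flavoprotein subunit, is not in the list of 34. It had 71.1 and 83.7 CPM in Δsyc1 and 44.2 and 45.1 CPM in wild-type, and it was called higher (0.79 ± 0.08, adjusted p = 7.4e-05). The subunits facing the matrix thus had positive values and the anchor subunits negative ones, and the SDH1 and SDH2 regions are 2332 and 1227 nt long, against 751 and 843 nt for SDH3 and SDH4.

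Added up, the 34 genes took 0.311% ± 0.00608 of the counts in Δsyc1 and 0.288% ± 0.00401 in wild-type (SD over 2 libraries). The ratio was 1.08, with the smallest exact permutation p possible, 0.333. The F1 genes took 0.141% in Δsyc1 and 0.103% in wild-type (ratio 1.37). Cytochrome c oxidase took 0.0228% in Δsyc1 and 0.0295% in wild-type (ratio 0.773), and the bc1 complex 0.0632% in Δsyc1 and 0.0738% in wild-type (ratio 0.857). The sum is led by few genes, and without ATP2, ATP1 and NDI1, the 3 with the most counts, the ratio was 0.869. These shares are of raw library totals, a scale on which the median log2 fold change of all genes tested was -0.17, a ratio of 0.889.

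The genes around the chain were counted from 13 lists. Of 130 genes listed, 110 were counted and 108 tested, of which 17 were called higher and 3 lower. These counts, and those of each list, can be read against the 9.08% and 8.15% of all genes. The median log2 fold change of the 108 was 0.10. The lists were drawn up with earlier results of these data known. With an adjusted p under 0.1 and no fold change minimum, 33.5% of all genes were higher and 35.5% lower. The share at an unadjusted p under 0.05, used below, was not computed over all genes. DESeq2 against a fold change of 1.5 called 6 of these genes higher and 0 lower. The 6 were STF2, CYB2, AEP3, NCA3, ACO1 and TIR3. Every other called gene named below, INH1 and STF1 among them, then lost its call.

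The regulatory proteins of the ATP synthase, INH1, STF1 and STF2, were called higher. INH1, which blocks ATP hydrolysis when the proton gradient fails, had 4.19 and 4.44 CPM in Δsyc1, against 2.22 and 2.41 CPM in wild-type (log2 fold change 0.90 ± 0.16, edgeR adjusted p = 0.0014). STF1, its close relative, had 16.8 and 17.5 CPM in Δsyc1, against 6.94 and 10.3 CPM in wild-type (0.99 ± 0.17, adjusted p = 0.0011). STF2, a stabilizing factor of the inhibited enzyme, had 42.4 and 43.7 CPM in Δsyc1, against 7.99 and 8.44 CPM in wild-type (2.39 ± 0.08, adjusted p = 2.4e-07), a larger fold change than that of any of the 34 subunit genes. All 3 regions are short, at 452, 487 and 501 nt, a class whose median was negative. Of the small membrane subunit genes in the same list, ATP19 was called lower at 7.05 and 7.43 CPM in Δsyc1, against 11.9 and 15.5 CPM in wild-type (-0.92 ± 0.15), a call that was lost with the length offset (-0.48). ATP18 and TIM11 had values of 0.37 and -0.11.

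Among the assembly factors, 2 of 9 genes for the ATP synthase were called higher. AEP3, which stabilizes a mitochondrial ATP synthase mRNA, had 142 and 150 CPM in Δsyc1, against 69.5 and 66.8 CPM in wild-type (log2 fold change 1.10 ± 0.06). NCA3, which acts on the expression of mitochondrially encoded ATP synthase subunits, had 25.4 and 23.6 CPM in Δsyc1, against 7.49 and 6.86 CPM in wild-type (1.77 ± 0.10). At an unadjusted edgeR p under 0.05, 6 of 28 factors of cytochrome c oxidase were higher and 7 lower. By edgeR and by DESeq2 against no change, 0 were called higher and 2 lower. The 2 were PET117 (-0.66 ± 0.12) and PET191 (-0.61 ± 0.14). Both calls were lost with the length offset, that of PET117 also without wild-type replicate 2 (-0.58) and that of PET191 also without Δsyc1 replicate 2 (-0.47). Of 14 factors for complexes II and III and cytochrome c and of 7 genes of haem synthesis, 0 were called by edgeR or by DESeq2. At an unadjusted edgeR p under 0.05, 3 of the 14 were higher and 2 lower, and 2 of the 7 were higher and 1 lower.

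Of 6 other dehydrogenases, 2 were called higher, SDH1 and CYB2. CYB2, for the lactate dehydrogenase that hands electrons straight to cytochrome c, had 28.1 and 25.5 CPM in Δsyc1, against 6.73 and 6.97 CPM in wild-type (log2 fold change 1.97 ± 0.10, edgeR adjusted p = 1.3e-06). COQ6, for an enzyme of ubiquinone synthesis, was called higher among 7 genes (0.59 ± 0.06), close to the fold change minimum. This call was lost without Δsyc1 replicate 1 (0.58) or wild-type replicate 2 (0.56), with upper-quartile factors (0.51), with no normalization factors (0.44) and with the length offset (0.57). POR1, for the channel of the outer membrane, was called higher among 5 genes of the ATP supply (0.60 ± 0.08), also close to that minimum. Its call was lost without Δsyc1 replicate 2 (0.48) or wild-type replicate 1 (0.57), with upper-quartile factors (0.52) and with no normalization factors (0.45). Of the 11 TCA cycle genes, which feed the chain, 6 were called higher and 0 lower by edgeR and by DESeq2 against no change. DESeq2 against the fold change minimum called only ACO1 of the 11. At an unadjusted edgeR p under 0.05, 10 were higher and 0 lower, and the median log2 fold change was 0.61. ACO1 (0.76 ± 0.06), KGD1 (0.70 ± 0.06) and IDH2 (0.69 ± 0.06) led the 6 called. With no normalization factors KGD1 and IDH2 were at 0.54 and lost their calls, KGD1 also with the length offset (0.51). LSC2 (0.68), CIT1 (0.66) and MDH1 (0.61) were also called, and their calls were not followed one by one under these settings. With no normalization factors 10 genes of all the lists were called higher, against 17.

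Of 5 transcription regulators, 0 were called by edgeR or by DESeq2, and 1 had an unadjusted edgeR p under 0.05. HAP4 had 69.5 and 73.7 CPM in Δsyc1 and 66.9 and 72.2 CPM in wild-type, and the groups overlapped (log2 fold change 0.04 ± 0.07, edgeR adjusted p = 0.60). HAP2, HAP3 and HAP5, for the DNA-binding subunits, had values of -0.15, 0.03 and -0.07, with adjusted p of 0.111, 0.789 and 0.509. The signs of HAP3, HAP4 and HAP5 turned under other scalings or without single libraries, to values between -0.12 and 0.05. HAP1 was not analysed here. ROX1, for the repressor of hypoxic genes, had 1441 and 1312 CPM in Δsyc1 and 1045 and 1150 CPM in wild-type (0.33 ± 0.07, adjusted p = 0.005) and was not called. The 730 tested mRNAs with CCAAT between 91 and 180 bases before the start had a median log2 fold change of -0.02, and those without it one of -0.01.

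COX5B and CYC7 were set beside other hypoxic genes. Of 6 tested, TIR3 and TIR1, for cell wall mannoproteins, were called higher (1.31 ± 0.17 and 0.78 ± 0.15), TIR1 not without Δsyc1 replicate 2 (0.54). AAC3, for the hypoxic ADP/ATP carrier, had 15.2 and 18.3 CPM in Δsyc1 and 23.2 and 20.9 CPM in wild-type (-0.40), and HEM13 of haem synthesis had 43.3 and 47.8 CPM in Δsyc1 and 52.8 and 49.5 CPM in wild-type (-0.17). ANB1, a hypoxic translation factor gene, had 2.71 and 3.74 CPM in Δsyc1 and 2.74 and 2.12 CPM in wild-type, and these overlapped. HMG2, for an isoform of HMG-CoA reductase, had 316 and 345 CPM in Δsyc1 and 237 and 229 CPM in wild-type (0.50 ± 0.06, edgeR adjusted p = 0.00015), without overlap and under the fold change minimum. Members of this group thus lay on both sides of 0. Of 6 tested glucose-repressed genes outside the chain, 0 were called by edgeR or by DESeq2, with 1 higher and 1 lower at an unadjusted edgeR p under 0.05. Their median was 0.16.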

How the data were processed

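RNA made during labelling (4tU-seq) was measured in 2 Δsyc1 and 2 wild-type libraries, grouped by their titles. The authors aligned paired reads to sacCer3 with STAR 2.3.0, kept pairs of mapping quality of at least 7 with SAMtools, and deposited raw HTSeq counts per region. Strand use in counting is not given in the sources used here. Their DESeq2 comparison (fold changes and p-values) was not used, and 0 count columns matched no sample. All 4970 regions lay inside the R64 chromosomes, and 4886 identifiers matched RefSeq.

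Genes with a mean DESeq2-normalized count of at least 30 in either group (4845) were tested with edgeR 4.0.16 in R 4.3.3 (TMM factors, quasi-likelihood, Benjamini-Hochberg adjustment over all genes). A call needs an adjusted p below 0.1 with more than a 1.5-fold change. The SE is the log2 fold change divided by the root of F. Within-library ratios and shares were compared by exact two-sided permutation. Scripts were tested on simulated counts. DESeq2 1.42.0, other scalings, filters, a length offset, a replicate block and leaving out each library were tried, and a crossed replicate block was added after seeing the data.

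Named were SYC1, called members, the highest and lowest member of each complex, the isoform pairs, NDI1, ATP1 and ATP2, of each other list at most 3 called genes, and HAP2 to HAP5 and ROX1. Other genes named with values were chosen after their values were seen. The members and lists were chosen with earlier results of these data known. Mitochondrially encoded subunits were not analysed here. Replicates had Pearson correlations of log2 CPM of 0.998 in each strain and differed beyond sampling noise (chi-square per gene 20.2 in Δsyc1 and 10.8 in wild-type).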

Additional observations from a re-analysis of the deposited data

How the results depend on the processing

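Counts of related genes here include the mating-type markers. Of the members' fold changes under the alternatives, 485 kept their direction and call status, 33 gained a call, 15 lost one and 11 reversed. Those that gained a call include genes called only because the fold change minimum was dropped, at an unchanged fold change. Also followed were SYC1, HAP2 to HAP5, ROX1 and at most 3 called genes of each list. For these the counts that kept their status, gained a call, lost one and reversed were 305, 1, 33 and 13. With the replicate block alone the members called stayed 4 higher and 3 lower, and with the crossed pairing they were also 4 and 3. The numbers are shared by 2 pairs only, and replicate differences in Δsyc1 and wild-type had a correlation of -0.200 across genes. Leaving out a library assumed that a lone sample varies like the other group. It gave 4 to 5 members higher, 3 to 4 lower, 14 to 17 related genes higher, 2 to 5 lower (5 without Δsyc1 replicate 1) and a median of 0.047 to 0.107.

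With no normalization factors, 2 members were higher and 5 lower, 10 related genes higher and 5 lower, and the median of the members was -0.0495 (that of all genes -0.17, against -0.02). Of all calls 68.0% were then lower, against 47.3%. With upper-quartile factors, 5 related genes were lower, the median was 0.0181 and 58.4% of all calls were lower. With DESeq2 size factors the median was 0.11, as with both DESeq2 tests. DESeq2 against a fold change of 1.5 called 0 members higher and 0 lower, 6 related genes higher and 0 lower, and 35.7% of all its calls were lower. With the length offset, 7 members were higher and 0 lower, 1 related gene was lower, the median was 0.17 and 35.5% of all calls were lower. The replicate block with the length offset gave 7 higher and 0 lower, 1 related gene lower and a median of 0.17. With no fold change minimum 15 members were higher and 14 lower, and 48 related genes higher and 17 lower. The ratio of the members' share was 1.11 without the 100 most abundant other genes and 0.869 without the 3 most abundant members.

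Reversed were ATP5 (-0.014 with upper-quartile factors, -0.082 with none), RIP1 (-0.079 and -0.147, and -0.0039 to 0.015 without single libraries), COX13 (-0.017 with none), ATP7 (0.013 with the length offset, 0.016 with the replicate block too) and COX9 (0.020 and 0.025). HAP3 reversed with upper-quartile factors (-0.051), with none (-0.119) and without single libraries (-0.028 to 0.096). HAP4 reversed likewise (-0.043, -0.111, -0.012 to 0.098) and with the length offset (-0.042, and -0.041 with the replicate block). HAP5 reversed with the length offset (0.048, and 0.051 with the block) and without wild-type replicate 2 (0.0053, with -0.137 at the other end of that range). The cause was not tested. CYC7, at 49 to 102 counts a library, is the member with the least depth.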
